A study of Homo sapiens with 8 samples.

Results

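RNAPII ChIP-seq lists from MDA-MB-453 cells were searched for protein-coding promoters at which a region was listed after CDDD11-8 and not with vehicle, and 223 of 19793 genes met the criterion. MDA-MB-453 is an established human breast cancer cell line of the luminal-like triple-negative type. Cells received vehicle or 600 nM of CDDD11-8, a CDK9 inhibitor, for 4 h, with 2 biological replicates per treatment from independent passages. RNAPII was precipitated with an antibody, and the authors called regions in each of the 4 ChIP libraries against its own input chromatin. No list of the 4 inputs was used here. The treatment is the labelled difference between the groups, both of which are 1 cell line.

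The genes were chosen by the measured regions themselves. A gene was kept when a listed region came within 300 bp of its transcription start site (TSS) in each of the CDDD11-8 libraries while no vehicle region did. The TSS was that of the longest isoform in GENCODE release 44 on GRCh37 coordinates. A further gene that met the criterion was left out by the rule. These 223 genes were 1.13% of all protein-coding genes. The reverse criterion, a region in both vehicle libraries and in neither CDDD11-8 library, was met by 156 genes, or 0.788%. Because the lists chose the genes, the contrast with vehicle at the promoter is a description and carries no test. "No region" means that none passed the authors' threshold, for which the smallest listed −log10 q-value was 2.00 in every library, and it does not mean that RNAPII was absent.

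RNAPII initiates at a promoter and commonly pauses a short way downstream of the TSS. CDK9, the kinase of the elongation factor P-TEFb, phosphorylates the polymerase and its pausing factors, and this allows RNAPII to pass into the gene body. A kinase inhibitor of this kind is therefore studied by where RNAPII sits relative to the TSS. An annotated gene often has several start sites, and cells of one type use only some of them.

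The promoters fell into those next to a vehicle region and those far from any. The distance from the TSS to the nearest edge of a vehicle region was under 1 kb for 66 genes, 1 to 10 kb for 46, 10 to 100 kb for 84 and 100 kb or more for 27. The sequences of SMAD4 and NSD1 show the first kind, as their long-isoform starts lie beside a start already occupied with vehicle. ZNF732 and TENT5C show the second kind, with a summit of their own and no vehicle region within 10 kb. ADRA2A and CIART add the TATAAA and CACGTG letters, which were found in few of the promoters. Each sequence is the 120 bases before the TSS in GRCh37, read 5′ to 3′ on the strand of the gene. Capitals mark the searched letters, on either strand: the GC box core GGGCGG, the CCAAT box, the E-box CACGTG, the TATA box TATAAA and the AP-1 site TGACTCA. None of these stretches overlaps an annotated exon.
SMAD4, chr18:48554778-48554897 on the plus strand: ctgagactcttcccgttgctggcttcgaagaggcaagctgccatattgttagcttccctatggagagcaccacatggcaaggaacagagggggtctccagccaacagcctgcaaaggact
NSD1, chr5:176558711-176558830 on the plus strand: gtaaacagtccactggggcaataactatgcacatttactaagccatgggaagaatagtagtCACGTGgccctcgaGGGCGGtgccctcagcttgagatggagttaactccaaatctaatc
ZNF732, chr4:299264-299383 on the minus strand: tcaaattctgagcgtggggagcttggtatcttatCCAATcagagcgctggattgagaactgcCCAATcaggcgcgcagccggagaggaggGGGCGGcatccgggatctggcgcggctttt
TENT5C, chr1:118148550-118148669 on the plus strand: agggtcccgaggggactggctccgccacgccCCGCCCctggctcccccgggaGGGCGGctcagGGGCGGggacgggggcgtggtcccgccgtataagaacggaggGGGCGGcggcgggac
ADRA2A, chr10:112836667-112836786 on the plus strand: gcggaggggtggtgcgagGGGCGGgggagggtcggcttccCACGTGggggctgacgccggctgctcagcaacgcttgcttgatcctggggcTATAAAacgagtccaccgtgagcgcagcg
CIART, chr1:150254833-150254952 on the plus strand: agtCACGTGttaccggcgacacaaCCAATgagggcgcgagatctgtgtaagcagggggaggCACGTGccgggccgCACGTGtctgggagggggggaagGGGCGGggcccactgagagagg

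The study's methods state a minimum sequencing depth, but no read total per library is given in the lists, and depth could not be compared between libraries. They held 78306 and 57493 regions with vehicle, and 25897 and 21842 after CDDD11-8. A region reached the promoter of 10213 and 10388 genes with vehicle and of 10661 and 10266 after CDDD11-8. Of 20 luminal and apocrine breast markers, 17 had a promoter region in all 4 libraries, and of 12 basal and myoepithelial markers 1 did. The single-library counts show how far the choice rests on the weaker list. Of the 9179 genes without a vehicle region at the promoter, 422 had a region in CDDD11-8 replicate 1 and 236 in replicate 2. The 223 shared genes were 52.8% of the first and 94.5% of the second. The count was 293 without vehicle replicate 1, 470 without vehicle replicate 2, 236 without CDDD11-8 replicate 1 and 422 without CDDD11-8 replicate 2. Requiring a −log10 q-value of 5 of the CDDD11-8 regions alone left 178 genes, and the reverse set, held to the full vehicle lists, then had 202. Within replicate number 1 alone, 732 promoters had a CDDD11-8 region and no vehicle region and 284 the reverse, whereas within replicate number 2 alone the counts were 306 and 428. Which of the sets was larger thus differed between the replicate numbers.

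Most of the promoters ranked low among the promoter regions of their libraries, though not among all regions, where their median percentiles were 60.9 and 49.4. Fold enrichment is the authors' ratio of signal to local background at the strongest summit of the region, and its percentile in what follows is taken among the promoter regions of the same library. In CDDD11-8 replicate 1 fold enrichment ran from 2.25 to 55.5 with a median of 6.72. In replicate 2 it ran from 2.02 to 40.4 with a median of 4.48. Promoters with a region in all 4 libraries had medians of 26.8 and 17.5, so the members were weak beside them in both libraries. The median percentile was 9.97 in replicate 1 and 7.03 in replicate 2, and 104 of the genes were under the 10th percentile in both. Above the 50th percentile in both were 11, and each of the 11 had a vehicle region within 10 kb. The median region was 1806 bp long in replicate 1 and 1077 bp in replicate 2, against 4921 bp and 4379 bp for promoters with a region in all 4. A −log10 q-value of at least 5 was listed for 212 of the genes in replicate 1 and for 181 in replicate 2.

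**Figure D1:**
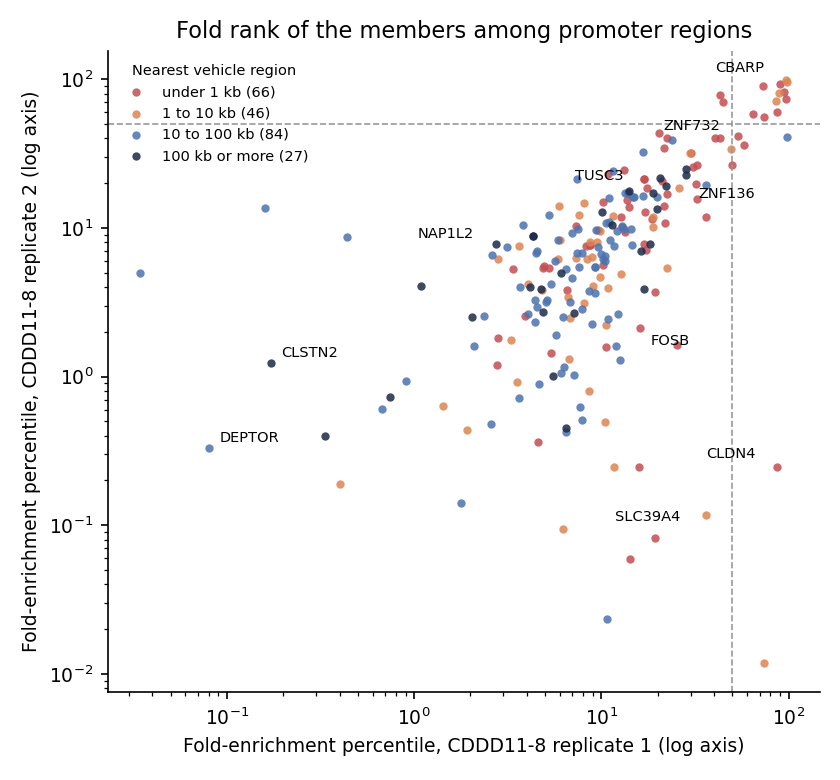
Fold-enrichment percentile of each of the 223 promoters among the promoter regions of CDDD11-8 replicate 1 (x axis, log) and replicate 2 (y axis, log), 1 point per gene, coloured by the distance to the nearest vehicle region; dashed lines mark the 50th percentile. The 11 promoters above 50 in both libraries all have a vehicle region within 10 kb, and CLDN4 lies far below the diagonal at 86.4 and 0.248.

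The 2 percentiles lay within 2-fold of each other for 139 genes and differed over 10-fold for 21, of which 18 were higher in replicate 1. Most members ranked low in both libraries, and how many would lie within 2-fold for that reason was not tested. Fold enrichment was higher in replicate 1 for 193 genes, and the region was longer there for 181. CLDN4, a tight junction claudin, had a fold enrichment of 39.4 in replicate 1 and 2.33 in replicate 2. Its region was 7800 bp long in the first, with the strongest summit 4460 bp downstream of the TSS, and 320 bp in the second. The highest summit inside the CLDN4 window was 3.86 and 2.33, so the libraries were much closer at the promoter itself than over the region. SLC39A4, a zinc transporter, gave 18.7 and 2.25 with regions of 10136 bp and 354 bp. In 12 of the 21 discordant genes the region was over 3 times as long in replicate 1. A rank of this kind is thus a property of the region, not of the start site, wherever a region runs on into a neighbouring peak.

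A summit inside the 300 bp window was listed in both CDDD11-8 libraries for 140 genes, in 1 library for 51 and in neither for 32. For those 32 the region reached the window from a summit elsewhere. The strongest summit of the region lay in the gene's own window in both libraries for 85 genes. It lay at another start of the same gene in both for 22, at the start of another protein-coding gene in both for 12, and at no protein-coding start in both for 35. The other 69 were assigned differently in the 2 libraries. A summit outside the window but within 300 bp of starts of both the gene and another gene was counted for the other gene. Where both libraries had a summit in the window, the strongest of them lay a median of 61.5 bp apart between replicates, and 84 of 140, or 60.0%, were within 100 bp. For the 8128 promoters with a region in all 4 libraries and a summit in the window in both CDDD11-8 libraries, the median was 46.0 bp and 79.0% were within 100 bp.

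The share of genes with their own summit differed between the distance classes. Of the 66 genes with a vehicle region under 1 kb away, 24 had their own summit in both libraries and 17 in neither. Of the 46 genes at 1 to 10 kb, 31 had it in both and 7 in neither. Of the 84 genes at 10 to 100 kb, 64 had it in both and 5 in neither, and of the 27 genes farther away the counts were 21 and 3. The strongest summit lay a median of 906 bp and 690.5 bp from the TSS in the nearest class, and 130.5 bp and 219 bp in the 10 to 100 kb class. The median percentile was 17.4 and 13.3 in the nearest class and 8.82 and 5.75 at 1 to 10 kb. It was 7.65 and 6.0 at 10 to 100 kb and 6.48 and 7.03 in the farthest class. In replicate 2 it thus did not fall further beyond the 1 to 10 kb class. The nearest class held the highest median ranks and the lowest share of genes with their own summit in both libraries.

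The median distance from a member's TSS to the nearest vehicle region was 8.06 kb, with quartiles of 0.78 and 48.7 kb. Measured against each vehicle library alone, the median was 17.3 kb for replicate 1 and 13.3 kb for replicate 2. Genes with no region in any library lay a median of 68.8 kb from a vehicle region, and 1.51% of them lay within 1 kb, compared with 29.6% of the members. The 156 promoters with vehicle regions only lay a median of 7.47 kb from the nearest CDDD11-8 region, and 17.9% lay within 1 kb. The members thus lay nearer to vehicle regions than genes without any region did.

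**Figure D2:**
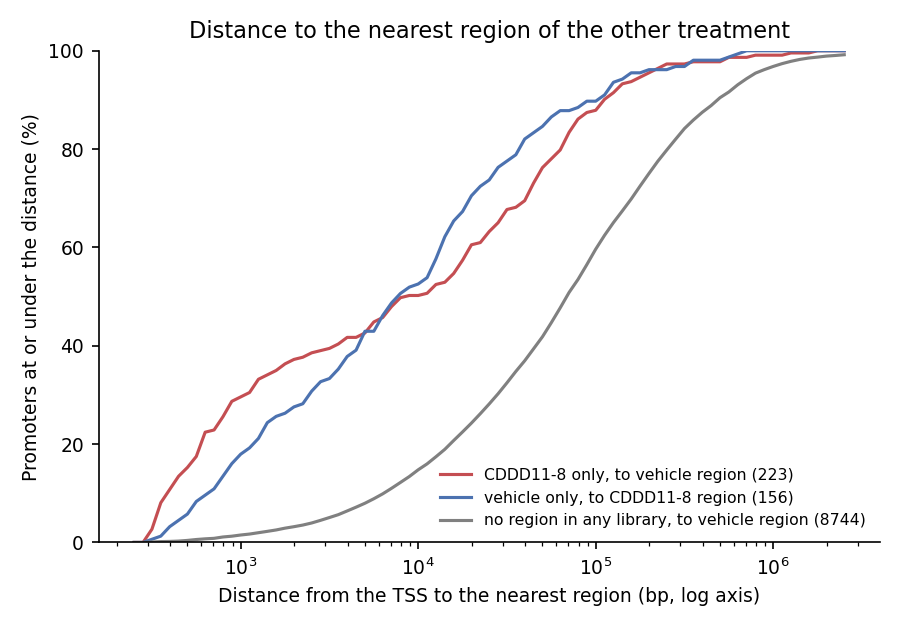
Cumulative percent of promoters (y axis) against the distance from the TSS to the nearest region of the other treatment (x axis, bp, log), for the 223 promoters with CDDD11-8 regions only, the 156 with vehicle regions only and the 8744 with no region in any library. At 1 kb the curve of the members has reached 29.6%, that of the vehicle-only promoters 17.9% and that of the unoccupied promoters 1.51%.

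Among the 66 members within 1 kb of a vehicle region, the vehicle region lay downstream of the TSS for 46 and upstream for 20. The CDDD11-8 region overlapped a vehicle region in both libraries for 48 of them. Another annotated start of the same gene had a vehicle region for 30 of the 66, and for 45 of all 223. These are genes that had RNAPII at one start with vehicle and a listed region reaching a second start after CDDD11-8.

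SMAD4, the common partner of SMAD proteins in TGF-β signalling, illustrates this kind. Its longest isoform starts at chr18:48554898, and 6 other annotated starts lie farther than 300 bp away. With vehicle a region began 676 bp downstream of that TSS in replicate 1 and 381 bp downstream in replicate 2. After CDDD11-8 the region ran from −133 to 4335 bp and from −795 to 4480 bp relative to the TSS. Its strongest summit stayed downstream in both, at 1749 and 1842 bp, with fold enrichments of 32.2 and 28.0. The strongest vehicle summits were at 1838 and 1847 bp, with fold enrichments of 6.17 and 11.04. No summit was listed inside the window in either CDDD11-8 library, although replicate 2 had one just outside it, at −302 bp, with 5.06.

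NSD1, a histone H3 lysine 36 methyltransferase, has its longest-isoform TSS at chr5:176558831. The nearest vehicle region began 1058 bp and 881 bp downstream. After CDDD11-8 the region started at −596 and −52 bp, with its strongest summit at 1901 and 2044 bp and fold enrichments of 32.6 and 17.2. Unlike SMAD4, NSD1 also had a summit in the window in both libraries, 205 and 203 bp downstream of the TSS, at 7.16 and 3.33. The gene body of NSD1 was covered by listed regions over 57.6% and 27.3% of its length with vehicle and over 4.25% and 2.77% after CDDD11-8.

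Among the genes without a summit of their own, those whose strongest summit lay far from the TSS included RASSF1, BCAR1, SMAD4, CTSB and DDX25. RASSF1, a RAS-association domain tumour suppressor, had fold enrichments of 54.3 and 32.5, and its strongest summit lay 3586 and 3680 bp downstream at another of its starts. BCAR1, an adaptor of focal adhesions, had 23.4 and 12.1 at summits 2001 and 2032 bp downstream. CTSB, the lysosomal protease cathepsin B, had 11.9 and 14.5 at summits 1724 and 1348 bp downstream. In these 3 genes the strongest summit belonged to another start of the gene in both libraries. DDX25, a testis RNA helicase, was reached from upstream: its strongest summits at −1333 and −1394 bp sat at the start of PUS3, with 21.0 and 13.8. Another start of DDX25 itself, at −1132 bp, also lay within 300 bp of these summits and had a vehicle region.

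Regions that reached the start of another protein-coding gene in both libraries were found at 21 genes. In 5 pairs both genes were members and shared the region: ADIRF with MMRN2, CHN2 with CPVL, CXCL16 with ZMYND15, NLN with SGTB, and RIMBP3C with UBE2L3. Such pairs count as 1 observation of RNAPII, not 2. CXCL16, a transmembrane chemokine, and ZMYND15 had fold enrichments of 10.3 and 8.90 over one region of 2715 and 2658 bp. For CBARP, a regulator of calcium channels, the region spanned 43445 and 41207 bp and took in the starts of ATP5F1D, CIRBP, FAM174C and MIDN. The fold enrichments of that region were 50.7 and 40.4, while the highest summit in the CBARP window was 6.02 and 5.21. NFE2L3, a transcription factor of the NRF family, lay 25 kb from the nearest vehicle region, and its region of 56393 bp in replicate 1 took in the starts of CBX3 and HNRNPA2B1. Its own window held summits of 6.84 and 9.62.

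The remaining 111 genes lay at least 10 kb from any vehicle region. A summit in the window was listed in both libraries for 85 of them, and in 63 it was the strongest of the region in both. In replicate 1, 98 of the 111 had a summit in the window, at a median of 60.0 bp downstream of the TSS, and 69 of the 98 were downstream. In replicate 2, 90 had one, at a median of 57.0 bp downstream, and 56 were downstream. Promoters with a region in all 4 libraries had their strongest window summit at a median of 38 and 40 bp downstream. In both sets the median summit thus lay just after the TSS.

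ZNF732, a zinc finger gene whose TSS is chr4:299263, had nearly the same values in both libraries. Its fold enrichment was 13.3 in replicate 1 and 13.4 in replicate 2, at summits 100 and 99 bp downstream of the TSS. The −log10 q-values were 44.4 and 44.5. The nearest vehicle region was 31.6 kb away in replicate 1 and 31.4 kb in replicate 2. ZNF136, at chr19:12273911, had 15.3 and 9.23 at summits 143 and 119 bp downstream, over 100 kb from any vehicle region. TENT5C, a non-canonical poly(A) polymerase at chr1:118148670, had 11.9 and 8.93 at summits 74 and 85 bp upstream, and its nearest vehicle regions were 238 and 171 kb away. In each of these genes the region had its strongest summit in the gene's own window in both libraries.

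**Figure D3:**
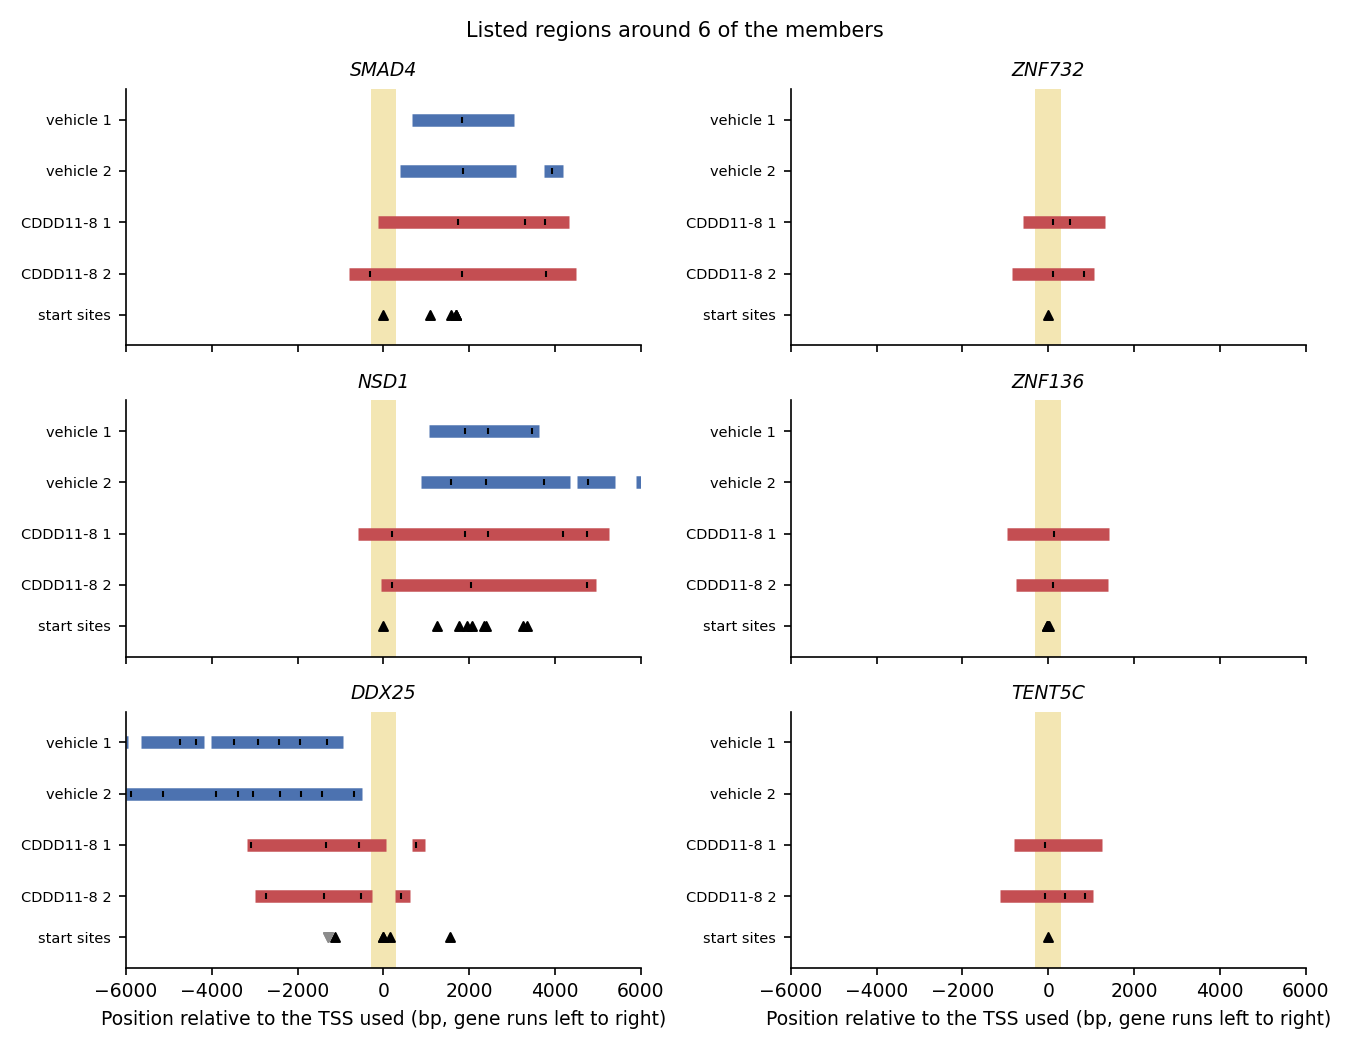
Listed regions (bars) and summits (ticks) within 6000 bp of the TSS of 6 members, in vehicle (blue) and CDDD11-8 (red) replicates 1 and 2; the x axis is the position relative to the TSS with the gene running left to right, the shaded band is the window of 300 bp either side, black triangles are starts of the gene and grey triangles starts of another gene. At SMAD4, NSD1 and DDX25 a vehicle region lies outside the band and the CDDD11-8 region extends into it, whereas ZNF732, ZNF136 and TENT5C have no vehicle region in view.

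SRPK2, a kinase of splicing factors, was the highest-ranked gene with an own summit in both libraries that lay over 100 kb from vehicle regions. Its fold enrichments were 15.3 and 9.84, and the nearest vehicle regions were 132 kb away. The strongest summit was 586 and 588 bp downstream at another of its starts, and the window itself held 10.3 and 6.55. The other genes in the 12 with their own summit and the highest ranks were UBXN8, AP5B1, CLEC11A, PIK3IP1 and ZNF256. UBXN8, a UBX-domain protein, had 26.4 and 12.6 over a region that also reached the start of GSR, with a vehicle region 328 bp away. AP5B1, a subunit of an adaptor protein complex, had 15.9 and 11.6 with a vehicle region 5.47 kb away at the nearest. CLEC11A, a secreted lectin, had 23.6 and 10.3 with one 425 bp away, and PIK3IP1, an inhibitor of PI3-kinase, had 12.5 and 12.4 with one 343 bp away. The strongest summits of these 4 genes lay outside the window in both libraries. The window itself held 4.21 and 6.80 for UBXN8 and 11.9 and 5.35 for AP5B1. For CLEC11A it held 5.32 and 3.58, and for PIK3IP1 8.16 and 3.30. ZNF256 had 18.6 and 8.22 at summits in its own window, with its nearest vehicle region 11.5 kb away.

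The 6 genes farthest from any vehicle region were TUSC3, LRP12, CNTN4, CLSTN2, RANBP17 and NAP1L2. TUSC3, a subunit of the oligosaccharyltransferase, lay 1706 kb from the nearest one and had fold enrichments of 8.91 and 7.76 at summits 31 and 48 bp downstream. LRP12, a member of the LDL receptor family, lay 1172 kb away with 3.14 and 3.61, and CNTN4, a neuronal adhesion protein, 769 kb away with 2.95 and 2.62. CLSTN2, a synaptic calsyntenin, lay 544 kb away with 2.54 and 2.86, at summits 55 and 57 bp downstream. RANBP17, of the exportin family, lay 524 kb away with 12.7 and 8.14. NAP1L2, a neuronal nucleosome assembly protein on the X chromosome, lay 348 kb away with 3.83 and 4.69. TUSC3 and RANBP17 stood above the median rank of the members in both libraries, and LRP12, CNTN4 and CLSTN2 stood below it in both.

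At the lower end of the ranks were DEPTOR, IL6R, PEAK3 and CFAP206. DEPTOR, an inhibitor of mTOR, had fold enrichments of 2.44 and 2.38, and IL6R, the interleukin 6 receptor, 2.75 and 2.43. PEAK3, a pseudokinase scaffold, had 2.80 and 2.31, and CFAP206, a protein of cilia, 2.92 and 2.54. Their −log10 q-values were near the limit of the lists, with 2.59 and 2.18 for DEPTOR and 4.33 and 2.86 for IL6R. The smallest fold enrichment listed was 1.22 and 1.41 with vehicle and 1.55 and 1.2 after CDDD11-8. Whether a weak region was missing from a vehicle list for want of depth was not tested.

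The edges of the criterion were as follows. The window was only just reached by the farther CDDD11-8 region at FADS3, a fatty acid desaturase, 298 bp from the TSS, and at DDX25 at 259 bp. It was only just missed at C16orf90 with a region 301 bp away, at SEMA4D with 305 bp and at TRAF5 with 310 bp. The nearest vehicle region lay just outside the window at CIART, a circadian repressor, and at PCDHGA10, a protocadherin, both with 301 bp, and at NAMPT, the enzyme of NAD salvage, with 306 bp. Genes kept out by a vehicle region just inside were INAFM2 at 295 bp, and AGO2 and SPATS2L at 294 bp. A vehicle region lay within 500 bp of 34 of the 223 starts, and the TSS itself lay inside the region in both CDDD11-8 libraries for 161.

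Of the 26 families looked at, zinc finger genes had the most members. Of 604 genes with a ZNF, ZSCAN, ZKSCAN, ZBTB or ZFP symbol, 12 were members, or 1.99% beside 1.13% of all genes. The family was commonly occupied to begin with: 72.4% had a region in all 4 libraries against 49% of all genes, which left 143 with no vehicle region. The 12 were 8.39% of these 143, whereas members were 2.43% of all genes without a vehicle region. The genes were ZNF134, ZNF136, ZNF256, ZNF257, ZNF331, ZNF396, ZNF416, ZNF549, ZNF595, ZNF662, ZNF732 and ZNF593OS. ZNF593OS carries the name of the gene it lies opposite and is not itself known as a zinc finger protein.

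Of these 12, 11 had their strongest summit in their own window in both libraries and lay more than 10 kb from any vehicle region, the exception being ZNF593OS. On chromosome 19 lay 7 of them, of 263 zinc finger genes there. The fold enrichments of the family ran from 4.28 to 18.6 in replicate 1 and from 2.78 to 13.4 in replicate 2, with median percentiles of 10.3 and 10.1. ZNF549 had 5.56 and 8.84, ZNF416 8.36 and 5.51, and ZNF134 4.67 and 6.14, in a stretch of chromosome 19 whose vehicle regions were 14.2 to 26.5 kb from these starts. ZNF257, 215 kb from any vehicle region, had 4.28 and 3.61, and ZNF662, over 100 kb away, had 10.2 and 3.56. ZNF331 had 5.61 and 4.04, and another of its starts had a vehicle region. Zinc finger genes are homologous and clustered, and reads shared between copies could be split by the alignment.

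**Figure D4:**
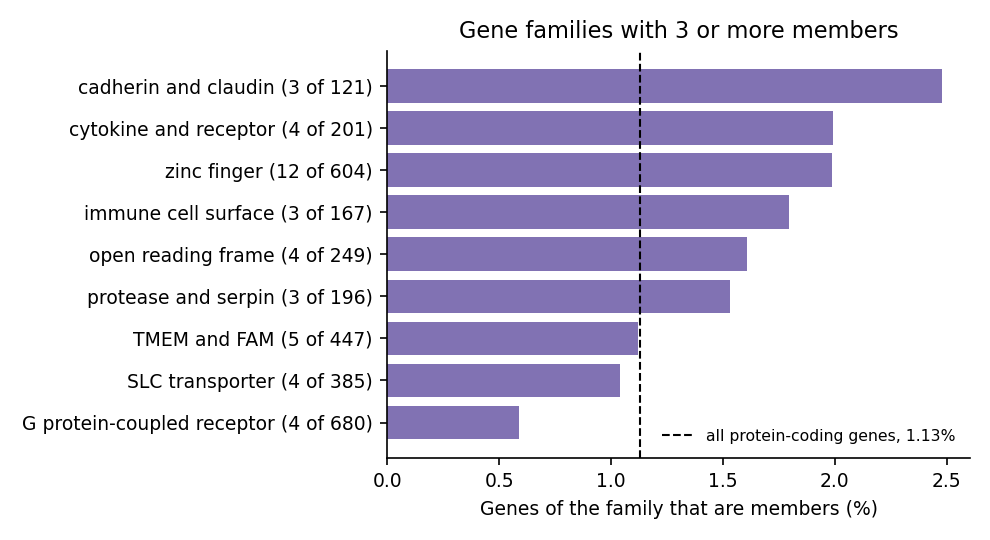
Percent of the genes of each family that are members (x axis), for the 9 families with 3 or more members, with counts in brackets; the dashed line marks the 1.13% of all protein-coding genes. Zinc finger genes reach 1.99% with 12 members, and the families above the line with 3 or 4 members rest on counts too small to rank.

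Other families had few members each. Cytokines and their receptors had 4 of 201 and cadherins and claudins 3 of 121. G protein-coupled receptors had 4 of 680, or 0.588%, the solute carriers 4 of 385 and the TMEM and FAM genes 5 of 447. TNFRSF21, a death receptor, had fold enrichments of 5.01 and 3.85 at summits 40 and 19 bp upstream, 166 kb from vehicle regions. TNFRSF11A, the receptor RANK, had 5.6 and 6.1 at summits 299 and 272 bp upstream, close to the limit of its window.

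Among receptors, GPR3, which is constitutively active, had 11.3 and 5.47, GPR153 8.47 and 5.36, PTGER3, a prostaglandin E2 receptor, 4.24 and 3.65, and ADRA2A, the α2A adrenergic receptor, 4.39 and 4.4. All 4 had a summit in the window in both libraries. For GPR153 the strongest summits lay outside it, 415 and 866 bp downstream of the TSS, and the window held 4.07 and 4.38. Solute carriers with their own summit were SLC12A8 (8.28 and 3.85), SLC8A2 (7.03 and 4.16), SLC9A7 (2.82 and 4.97) and SLC39A4. The values in brackets are those of the whole region. In replicate 1 the strongest summits of SLC12A8 and SLC8A2 lay outside the window, which held 4.70 and 5.43. In replicate 2 the strongest summit of both genes lay in the window. The leukocyte-named genes CD99, CD302 and CD8A had 10.1 and 11.7, 7.57 and 9.61, and 5.49 and 5.50. In replicate 2 the strongest summit of CD302 lay 2583 bp downstream of the TSS, and its window held 3.45. Listed regions covered 60.7% and 55.6% of the CD302 gene body with vehicle. CD99 lies in the pseudoautosomal region, and the strongest summits of CD8A lay 572 and 664 bp downstream of the TSS used. PCDH1, PCDHGA10 and CLDN4 made up the adhesion genes. ADAMTSL4, CTSB and SERPINC1 were grouped by symbol alone with the proteases and their inhibitors. The strongest summit of the ADAMTSL4 region lay 30044 and 30057 bp away at the start of another gene, in a region that took in the start of MCL1.

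The genes named only by a segment, a similarity or a reading frame were TMEM38B, TMEM51, TMEM181, FAM27A, FAM27B, C1orf232, C16orf74, C17orf113 and C19orf33. TMEM38B, a potassium channel of the endoplasmic reticulum, had 4.48 and 3.58 at summits 12 bp downstream and 8 bp upstream, 136 kb from vehicle regions. TMEM181 had 3.75 and 4.30 and another start with a vehicle region. FAM27A and FAM27B are near-identical copies, with 7.25 and 9.39, and 6.25 and 3.62, so their reads may be interchanged. RIMBP3, RIMBP3B and RIMBP3C, named after their values were seen, are also near-identical, and all 3 met the criterion with fold enrichments of 5.16 and 3.56, 6.57 and 5.33, and 6.09 and 4.67.

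Of the marker and response lists, 1 contributed a gene. Of 27 immediate-early genes 19 had a promoter region in all 4 libraries and 1, FOSB, was a member. FOSB, a subunit of AP-1, had 9.94 and 3.13, and a vehicle region began 860 and 866 bp downstream. Its window held summits of 4.89 and 2.60. No member came from the luminal and apocrine breast, basal and myoepithelial, leukocyte, neuronal, muscle or liver markers, nor from 20 p53 targets or 20 interferon and NF-κB targets. Of 25 genes of P-TEFb, the 7SK complex and elongation, 24 had a region in all 4 libraries and none was a member. Members were 1.13% of all genes, so in lists of 12 to 27 genes a count of 0 or 1 cannot be told from that share. A gene with a vehicle region at the promoter could not be a member, which left few candidates on lists occupied with vehicle. The lists of other cell types were nearly empty in every library: liver markers had 0 of 12 promoters in any, and neuronal markers 1 of 12 in each.

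Further regulators were chosen after their values were seen, from members over 10 kb from any vehicle region, and other regulators lay closer, such as ETS2 at 334 bp and NFIX at 626 bp. MYCL, a MYC family factor, had 3.54 and 3.0, REL, an NF-κB subunit, 4.87 and 3.07, and RET, a receptor tyrosine kinase, 4.38 and 3.19, each at its own start in both libraries and 17.8, 76.7 and 50.02 kb from vehicle regions. HBEGF, an EGF receptor ligand, had 3.75 and 2.47, and WNT9A, a secreted WNT ligand, 10.9 and 4.71. DLX2, a homeobox factor, had 7.21 and 3.21, and DNMT3A, a de novo DNA methyltransferase, 6.56 and 4.6. In replicate 1, WNT9A at the percentile 18.1 and DLX2 at 10.8 stood above the members' median of 9.97, and the other 5 stood below it. In replicate 2, WNT9A at 7.82 and DNMT3A at 7.39 stood above the median of 7.03, and the others, DLX2 among them, stood below it. Another annotated start of DNMT3A had a vehicle region.

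The sequence of the promoters was not used to choose them. Over 300 bp either side of the TSS, the median GC content was 69.9% in the members, 65.7% in promoters with a region in all 4 libraries, 55.9% in the vehicle-only promoters and 56.2% in promoters without a region. All promoters had 62.7%. The ratio of observed to expected CpG had medians of 0.800, 0.834, 0.296 and 0.383 in the same order. The medians of the members thus lay on the side of the promoters occupied in all libraries, and those of the vehicle-only promoters on the side of the unoccupied ones. Within the members the GC content was 63.5% where a vehicle region lay under 1 kb away and 71.7% where it lay over 10 kb away, with CpG ratios of 0.731 and 0.835. SMAD4 had 43.9% and a ratio of 0.138, whereas CNTN4 had 77.7% and 0.970. Promoters with a region in CDDD11-8 replicate 1 alone, which the rule left out, had a median GC content of 66.4%. GC content can also move with amplification and sequencing of a library, and its part in the lists was not tested.

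**Figure D5:**
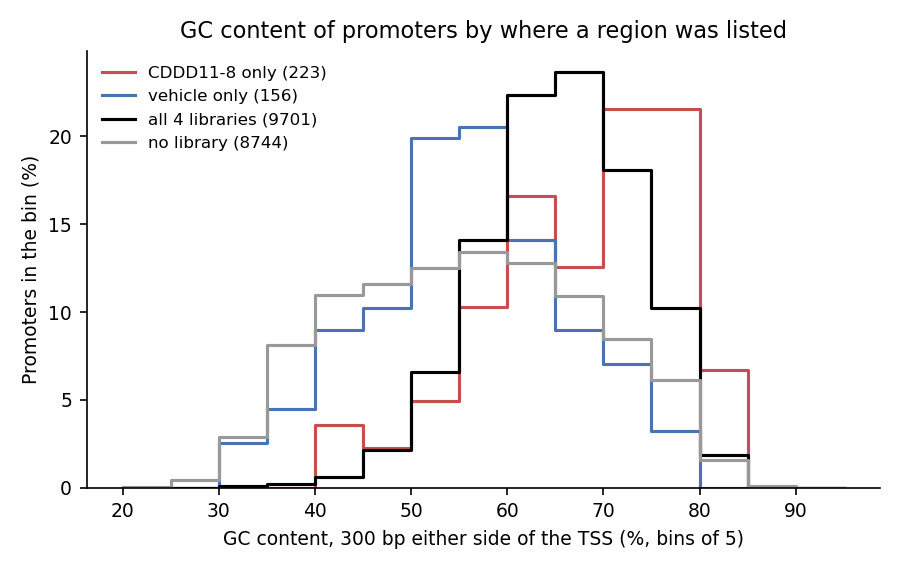
Percent of promoters (y axis) in each bin of 5 percentage points of GC content over 300 bp either side of the TSS (x axis), for the 223 promoters with CDDD11-8 regions only, the 156 with vehicle regions only, the 9701 with regions in all 4 libraries and the 8744 with none. The members lie highest on the GC axis, with a median of 69.9%, and the medians of the vehicle-only and unoccupied promoters are 55.9% and 56.2%.

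The 5 sets of letters were searched on both strands of the same window. GGGCGG, the core of a GC box, was present in 83.4% of the members, 86.5% of promoters with a region in all 4 libraries, 44.2% of the vehicle-only promoters and 68.4% of all promoters. It reached 93.7% in the members over 10 kb from vehicle regions. TATAAA was present in 13 members, or 5.83%, against 19.9% of the vehicle-only promoters and 15.2% of all. CCAAT was present in 37.2% of the members and 48.7% of all promoters, CACGTG in 11.2% and 12.8%, and TGACTCA in 6.28% and 6.10%. Matches of GGGCGG and TATAAA thus differed in opposite ways between the members and the vehicle-only promoters. These sets also differed in median GC content, at 69.9% and 55.9%, and the part of base composition in the matches was not tested. TGACTCA was at the level of all promoters, but it was present in 12.2% of the vehicle-only promoters and in 4.11% of those with a region in all 4 libraries. The ADRA2A stretch printed above holds TATAAA, and the CIART stretch holds CACGTG more than once. These are matches of letters and not sites.

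The median span from start to end was 29.6 kb in the members, 24.9 kb in all genes and 9.67 kb in the vehicle-only set. Another protein-coding start lay within 1 kb of 8.07% of the members, compared with 28.7% of the promoters occupied in all 4 libraries and 17.4% of all. The share was lower still in the vehicle-only promoters, at 4.49%, and in promoters without a region, at 5.91%. A non-coding gene started within 300 bp of 23 members, or 10.3%, beside 11% of all genes. The canonical isoform started over 300 bp from the TSS used in 38 members, or 17.0%, beside 14.9% of all genes. Of these 38, 20 were among the 66 with a vehicle region under 1 kb away.

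Listed regions past the promoter were mostly short. From 300 bp after the TSS to the end of the gene, 95 and 94 of the 223 genes had any listed region with vehicle, against 209 and 195 after CDDD11-8. The median share of the gene body inside a region was 0% in both vehicle libraries, and 4.03% and 2.21% after CDDD11-8. In the 111 genes over 10 kb from vehicle regions the counts were 31 and 24 with vehicle and 103 and 93 after CDDD11-8, with medians of 1.53% and 0.857% after treatment. A promoter region that runs past the window enters the gene body by construction, so these counts are not independent of the criterion. Chromosome 1 held 28 of the members and chromosome 19 held 21, or 1.36% and 1.46% of their genes, and chromosome 22 held 12, or 2.75%. The 12 on chromosome 22 included the near-identical RIMBP3B and RIMBP3C, and UBE2L3, which shared a region with RIMBP3C.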

How the data were processed

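RNAPII ChIP-seq was done on MDA-MB-453 cells. The authors aligned reads to GRCh37 with Bowtie 2 and called regions per library with MACS2 against the paired input, and versions are not given in the sources used here. The deposited pileup is a signal, whole in the vehicle lists and scaled in the CDDD11-8 lists, the deposited fold enrichment is a ratio to local background, and the deposited p-value and q-value are on the −log10 scale. Region length was deposited in bp. The study's methods give a minimum depth, but the lists hold no read counts, and library depths stay unknown, with no precision to be given from them. Summits of 1 region were joined, with the values of the summit of highest fold enrichment, except that the −log10 q-value was the highest of any summit in the region.

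A region within 300 bp of the TSS of the longest protein-coding isoform (GENCODE release 44, lifted to GRCh37) marked the promoter as occupied. A promoter had its own summit where a listed summit lay in the window. Percentiles were taken within a library. Families and lists, by symbol, and the members were chosen with earlier results of these data known, and no test was run. Named were the 12 genes with their own summit and the highest lower percentile, the 6 farthest from vehicle regions, the 6 reached from farthest, the 4 lowest ranks, members of families of at least 3 and of lists, and the genes at each edge of the criterion. Others are said to be chosen after their values were seen. A gene that the rule names is not reported here. Alternatives covered other windows, stricter q-values, equal numbers of regions, other start sites, summits, each library left out, and each replicate number alone. The membership rule and distances were tested on planted regions. Python 3.11.15, numpy 2.4.6, pandas 2.3.3 and matplotlib 3.10.9 were used.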

Additional observations from a re-analysis of the deposited data

How the results depend on the processing

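No paired analysis was possible because no result comes from a test that could hold a block. The criterion was instead applied within each replicate number, an alternative chosen after seeing the data. The 4 counts were 223 promoters, 140 with a summit in the window in both CDDD11-8 libraries, 111 with no vehicle region within 10 kb and 21 reaching another gene's TSS in both. Of 59 recomputed counts, 37 stayed within 1.5 times. Replicate number 1 of both treatments alone gave 732, 562, 419 and 112, and replicate number 2 alone gave 306, 229, 151 and 39. Leaving out 1 library, the counts ran from 236 to 470, 174 to 322, 118 to 275 and 21 to 71. Vehicle replicate 2 gave the highest when left out (470, 322, 275 and 71), followed by CDDD11-8 replicate 2 (422, 307, 211 and 54). With equal numbers of regions, 21842 per library, the counts were 492, 359, 334 and 63, and held 219 of the 223 genes. The cause was not tested. With equal numbers the reverse set held 76 promoters, and the members outnumbered it in all but 3 of the alternatives for which it was counted, the exceptions being a −log10 q-value floor of 5 for CDDD11-8 alone (178 against 202), leaving out CDDD11-8 replicate 1 (236 against 274) and replicate number 2 alone (306 against 428). With 100 bp either side, 50 promoters had their own summit. The number reaching another TSS was 37 with that floor in every library and 35 for single summits. With 1 kb either side, 157 of the 223 genes were kept, and 175 had no vehicle region at any isoform start. Against all regions of a library, the median percentiles were 60.9 and 49.4. The median distance was 17.4 kb to vehicle regions above that floor, 17.3 kb to those of replicate 1 alone and 13.3 kb to those of replicate 2 alone, a subset of regions that can only lie as far or farther. The read total of each library is unknown, so how far depth set which weak regions passed the threshold was not tested.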
